A study of Homo sapiens with 4 samples.

Results

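SWI/SNF, also called BAF, is a chromatin remodelling complex built around 1 of 2 alternative ATPases, SMARCA4 (BRG1) or SMARCA2 (BRM). The 10 genes SMARCA4, SMARCA2, SMARCB1, SMARCC1, SMARCC2, SMARCD1, ARID1A, ARID1B, ARID2 and PBRM1, chosen by name as its ATPases and main accessory subunits, were followed through 17 of the 47228 probes of a BeadChip. These are all the probes whose annotated gene is 1 of the 10. They covered 9 genes, and 0 probes carried the name PBRM1, whose level was therefore not analysed here. The RNA came from A549 cells, a human lung adenocarcinoma line, hybridised to 1 array for the non-targeting siRNA (control) and to 3 arrays for siRNAs against the long noncoding RNA EPEL (siEPEL). Each siEPEL array had its own siRNA, numbered 1, 2 and 3 in the labels. All cells were transfected at 50 nM, with a lipid reagent that the control cells received too, and the knockdown had been checked by the submitters at 48 h. The labels name no separate cultures, so p-values measure only the spread between these samples, which holds differences between siRNAs too.

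The remodeller uses the energy of ATP to slide or evict nucleosomes, which opens promoters and enhancers to transcription factors. A complex carries 1 of the ATPases, a core of SMARCC and SMARCD subunits, SMARCB1 in the BAF and PBAF forms, and subunits that set its form. ARID1A or ARID1B marks the canonical BAF form, ARID2 with PBRM1 the PBAF form, and BRD9 with BICRA or BICRAL a smaller non-canonical form that lacks SMARCB1. A549 is known to carry an inactivating mutation of SMARCA4 and to lack its protein, so its complexes are known to rely on SMARCA2. The arrays measured RNA at the probed site and read neither the mutation nor the protein.

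Most subunit probes lay near the control array with each siRNA, and 1 of the 2 SMARCB1 probes lay furthest from it, with siRNA 1. Within 1.25-fold, a limit chosen after the values were seen, were 31 of 33 subunit ratios. The share over all probes detected on all 4 arrays was 81.4%. No difference passed the test, as for every other probe tested. Of the 17 probes, 11 were detected above the negative control beads (detection p under 0.01) on all 4 arrays, 6 on 0 arrays and 0 on some arrays only. The 11 detected probes, from 8 genes, were thus not admitted through 1 group. Of them, 0 were higher and 0 lower at an adjusted p under 0.05 (limma, Benjamini-Hochberg over 18200 probes), where 0% of all tested probes were called in either direction. At an unadjusted p under 0.05 there were also 0 of 11, against 2.1% of all tested probes. Log2 fold changes of siEPEL against control lay between -0.39 and 0.15, with standard errors between 0.20 and 0.255 and an adjusted p of 1.00 for each. The median of the 11 probes was -0.02. With only the brightest probe of each gene, it was -0.02 for the 8 genes and -0.01 for all 10921 genes tested. Without siRNA 1 the median of the 11 was 0.02, and without siRNA 3 it was -0.05, so its sign is not settled. The control has 1 array and no spread of its own, so the 95% intervals below take its spread from the siEPEL arrays and rest on 2 residual degrees of freedom and 6.83 from the prior.

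**Figure D1:**
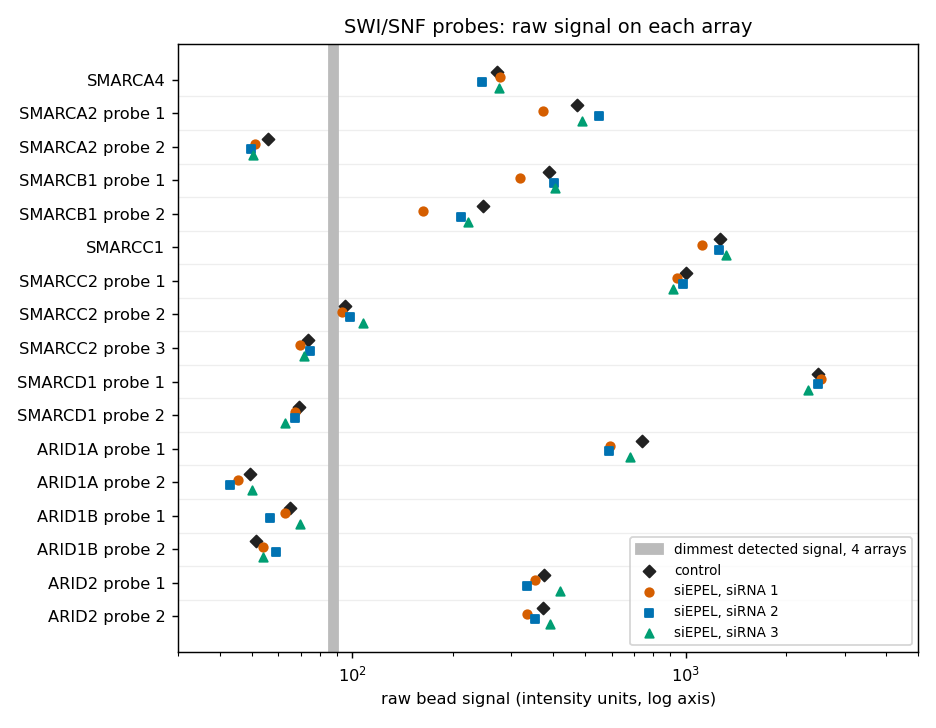
Raw bead signal (intensity units, log axis) of the 17 SWI/SNF probes on the control array and the 3 siEPEL arrays. Probes of 1 gene are numbered by brightness, and the grey band spans the dimmest detected signal of the 4 arrays, 85.0 to 90.7. Both ARID1B probes and 1 probe each of SMARCA2, SMARCC2, SMARCD1 and ARID1A lie below the band, and the other 11 above it on all 4 arrays.

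The plot of raw signals by array shows which subunits the BeadChip could follow. Signals are given per probe and only between arrays, since probes differ in how brightly they hybridise. The control array had 16520 probes detected (35.0%), and the siEPEL arrays between 16742 and 17106. As a check of the cell line, 6 of 6 epithelial marker genes (EPCAM, KRT8, KRT18, KRT19, CDH1 and KRT7) were detected on all 4 arrays. Of 6 endothelial marker genes 0 were detected, and of the leukocyte markers PTPRC and CD3E were not. CD14, ITGAM, CD68 and the fibroblast marker COL3A1 were detected on all 4 arrays, while COL1A2, DCN, PDGFRB and THY1 were detected on 0. COL1A1, the remaining fibroblast marker, was detected with siRNAs 1 and 2 only. Summed over each gene's brightest probe, the signal of the endothelial list was 320 to 339 and of the fibroblast list 431 to 466. The leukocyte list summed to 1066 on the control array and to 1167, 1288 and 1383 with siRNAs 1, 2 and 3, above the control on each. The epithelial list summed to 11630 with siRNA 2 and to 15810 to 16300 on the other arrays. The part of these markers in the values below was not tested.

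SMARCA4, the ATPase gene that is mutated in A549, was detected as RNA on all 4 arrays. Its only probe, ILMN_1814173, read 272 in control cells and 277, 246 and 275 on siEPEL arrays 1 to 3, brighter than every negative control bead on each (detection p of 0). The control signal lay inside the range of the siEPEL arrays, and siRNA 2 was the lowest. After background correction and quantile normalization the log2 ratios to the control were 0.07, -0.16 and -0.01. The log2 fold change of -0.03 ± 0.21 (SE) had a 95% interval of 0.704-fold to 1.36-fold (limma). Changes within that interval could not be told from none with these 4 arrays. In raw signal the order was siRNA 1, siRNA 3, control, siRNA 2. After normalization control and siRNA 3 changed places, and they differed there by 0.01 against an SD of 0.12 over the siEPEL arrays.

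SMARCA2, the alternative ATPase, varied more between the siRNAs than SMARCA4. Its detected probe, ILMN_1791702, had raw signals of 471 (control), 374 (siRNA 1), 548.5 (siRNA 2) and 488 (siRNA 3). The control again lay inside the siEPEL range, between the lowest array, siRNA 1, and siRNA 3. The ratios to the control were 0.810-fold, 1.21-fold and 1.04-fold, and the SD over the siEPEL arrays was 0.29 on the log2 scale, against a median of 0.16 over all probes detected on all 4 arrays. The limma estimate for siEPEL against control was 0.01 ± 0.255 (SE) in log2, with a 95% interval of -0.57 to 0.59. The second SMARCA2 probe, ILMN_1672419, is annotated to the same RefSeq transcript but gave 55.9, 50.9, 49.6 and 50.3, with detection p-values of 0.516 to 0.748. A gene measured by 1 probe and missed by another has no internal check of its ratio, and this holds for SMARCA2, SMARCD1 and ARID1A.

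Set against each other within each array, the 2 ATPases shifted unequally and without a common direction. The log2 ratio of SMARCA2 minus that of SMARCA4 was -0.38 on the siRNA 1 array, 0.44 for siRNA 2 and 0.06 for siRNA 3. These differences averaged 0.04 ± 0.41 (SD, 3 siRNAs), so the spread between siRNAs exceeded the mean. With siRNA 1 the balance lay toward SMARCA4 and with siRNA 2 toward SMARCA2, each from 1 array and 1 probe per gene, with no test. Probes of 1 gene can differ by as much. The 2 SMARCB1 probes, annotated to the same transcript, differed by 0.44, 0.34 and 0.26 with siRNAs 1 to 3. SMARCA2 lay below the control with siRNA 1 and above it with siRNA 2. So did the median log2 ratio of 15 remodeller ATPase genes outside SWI/SNF, at -0.15 and 0.10. That of 14 further SWI/SNF subunit genes lay above the control with both, at 0.03 and 0.09.

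**Figure D2:**
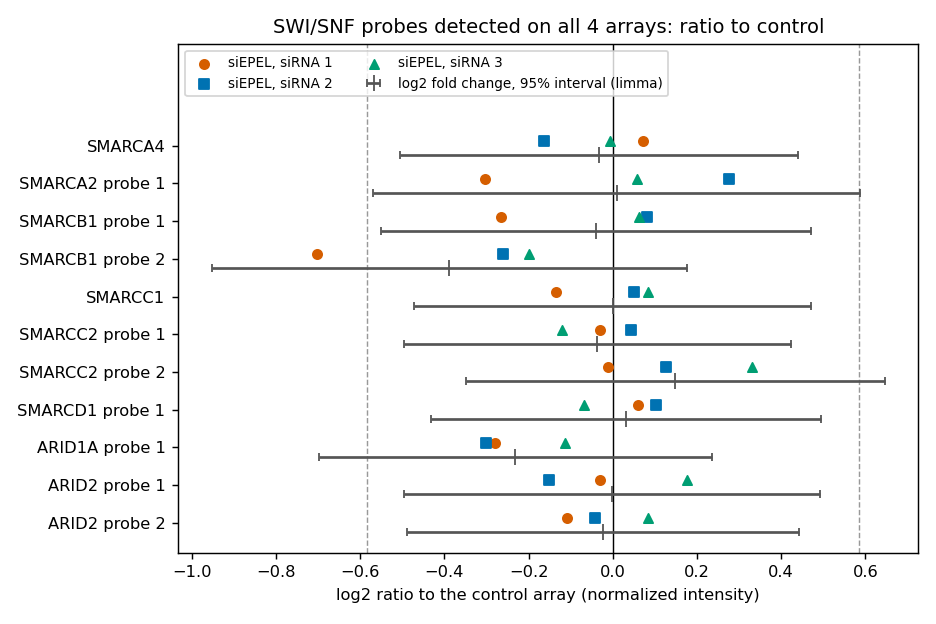
Log2 ratio to the control array of the 11 SWI/SNF probes detected on all 4 arrays, 1 point per siRNA. The grey bars are the limma log2 fold change of siEPEL against control with its 95% interval, and the dashed lines mark 1.5-fold. All 11 intervals include 0, and 1 point, SMARCB1 probe 2 with siRNA 1, lies beyond 1.5-fold.

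Of the core subunits, SMARCB1 (INI1, BAF47), a tumour suppressor lost in rhabdoid tumours, gave the widest single ratio, and its probes differed. The dimmer probe, ILMN_2403458, had a raw signal of 247 in control cells, and of 163, 212 and 223 on siEPEL arrays 1 to 3. All 3 siEPEL arrays lay below the control, siRNA 1 furthest. It stood at 0.614, 0.835 and 0.871 times the control. The log2 fold change of -0.39 ± 0.25 (SE) had a 95% interval of 0.517-fold to 1.13-fold (limma). The brighter probe, ILMN_1758823, read 391, 318, 402 and 407 on the same arrays. With it the control lay inside the siEPEL range and only siRNA 1 was below, so that its log2 fold change was -0.04 ± 0.23 (SE), with ratios of 0.832-fold, 1.06-fold and 1.04-fold. Both probes are annotated to the same transcript and both were lowest with siRNA 1. Without siRNA 1 the 2 fold changes were -0.23 and 0.07, in place of -0.39 and -0.04.

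The dimmer SMARCB1 probe with siRNA 1 was the single case, 1 of 33 ratios of a probe to control, that reached 1.5-fold. At least 1.5-fold lower were thus 1 of the 11 probes with siRNA 1, and 0 of the 11 with siRNA 2 and with siRNA 3. A count of 1 is the smallest above 0, and no excess is read from it. Over the 15517 probes detected on all 4 arrays, 2.4% were at least 1.5-fold lower with siRNA 1, 2.73% with siRNA 2 and 0.767% with siRNA 3. At least 1.5-fold higher were 0 of the 11, against 1.55%, 2.05% and 0.632% of all those probes.

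SMARCC1 (BAF155) and SMARCC2 (BAF170), the paired scaffold subunits, differed little between arrays. SMARCC1 gave 1270 in control cells and 1124, 1257 and 1327 on siEPEL arrays 1 to 3, with the control inside the siEPEL range. Its log2 fold change was 0.00 ± 0.21 (SE), with a 95% interval of 0.720-fold to 1.39-fold. The brightest SMARCC2 probe, ILMN_1773620, gave 1001, 944, 986 and 916, or 0.979, 1.03 and 0.919 times the control after normalization, and its fitted log2 difference was -0.04 ± 0.20 (SE). A second SMARCC2 probe, ILMN_1791770, lay just above the detection limit at 95.2, 93.4, 98.7 and 107, and was highest with siRNA 3 at 1.26-fold. Its log2 fold change was 0.15 ± 0.22 (SE), opposite in sign to that of the brighter probe and within its own error. The third SMARCC2 probe, ILMN_2251047, had signals of 69.8 to 74.5 and was detected on 0 arrays. The 3 probes are annotated to 2 transcripts of the gene, and the undetected probe shares its transcript with the brightest.

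SMARCD1 (BAF60A), which links the complex to transcription factors, was the steadiest probe after SMARCC2 by its SD over the siEPEL arrays, 0.09 against 0.08 on the log2 scale. Its brighter probe, ILMN_1728845, gave 2505, 2554, 2501 and 2334 on the control and siEPEL arrays 1 to 3, and after normalization only siRNA 3 lay below the control, at 0.953-fold. The log2 fold change was 0.03 ± 0.20 (SE), with a 95% interval of 0.741-fold to 1.41-fold. The other probe, ILMN_1727173, read 62.6 to 69.2 and was detected on 0 arrays.

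Among the subunits that set the form of the complex, ARID1A, the DNA-binding subunit of canonical BAF and a frequent target of mutation in carcinomas, lay below the control with all 3 siRNAs. Its detected probe, ILMN_1797341, had raw signals of 741 in control cells and 592.5, 589.5 and 683 on siEPEL arrays 1 to 3. The groups did not overlap, with ratios of 0.824-fold, 0.812-fold and 0.924-fold. Of all probes detected on all 4 arrays, 19.9% lay below the control with all 3 siRNAs and 21.1% above it, likewise without overlap. The log2 fold change was -0.23 ± 0.21 (SE), with a 95% interval of 0.616-fold to 1.18-fold (limma). The second ARID1A probe, ILMN_1734496, is annotated to another transcript variant and read 43.0 to 49.98, detected on 0 arrays.

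ARID1B, the paralogue that takes the place of ARID1A in the complex, was not detected by either probe. ILMN_1660433 gave 65.1, 62.6, 56.8 and 69.5 on the control and siEPEL arrays 1 to 3, and ILMN_2415357 gave 51.3, 53.9, 59.0 and 53.8. The lowest of these 8 detection p-values was 0.0688. No fold is given for a gene below the detection limit in both groups, and such a signal does not show that the gene is silent.

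ARID2, the DNA-binding subunit of PBAF, was read alike by its 2 probes. ILMN_2182335 gave 377 in control cells and 354, 335 and 420 on siEPEL arrays 1 to 3. ILMN_1795247 gave 373, 333, 354 and 393 on the same arrays. Both placed the control inside the siEPEL range, with siRNA 3 highest and siRNAs 1 and 2 below the control. Their log2 fold changes were 0.00 ± 0.22 and -0.02 ± 0.21 (SE).

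**Figure D3:**
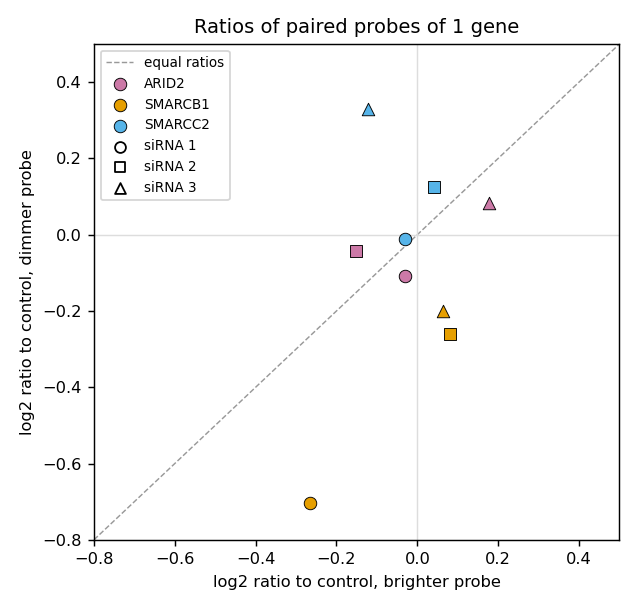
Log2 ratio to control of the brighter (horizontal) and the dimmer probe (vertical) of ARID2, SMARCB1 and SMARCC2, 1 point per siRNA, for probes detected on all 4 arrays. The dashed line marks equal ratios. The SMARCB1 points lie below it with all 3 siRNAs, by 0.26 to 0.44.

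The plot of paired probes sets the 2 detected probes of a gene against each other. The root mean square difference of their 3 log2 ratios was 0.09 for ARID2, 0.27 for SMARCC2 and 0.35 for SMARCB1. Over 3485 such pairs from 2423 genes the median was 0.21, and 10.4%, 66.7% and 83.2% of pairs differed less than those of ARID2, SMARCC2 and SMARCB1. The ARID2 pair therefore lay at the close end and the SMARCB1 pair toward the wide end of what this array gives for 1 gene. For SMARCB1 the brighter probe exceeded the dimmer by 0.44, 0.34 and 0.26 with siRNAs 1, 2 and 3. A pair shares its arrays, and the SMARCB1 and ARID2 pairs share a transcript, so the probes are not replicates.

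Counted by side, 2 of the 11 probes (ARID1A and the dimmer SMARCB1 probe) lay below the control with all 3 siRNAs, 0 lay above it with all 3, and 9 had siRNAs on both sides. Over all probes detected on all 4 arrays, 19.9% lay below with all 3 siRNAs and 21.1% above, all sharing the same control array. Of the 33 ratios of a probe to control with 1 siRNA, 31 were within 1.25-fold, a limit chosen after the values were seen, against 81.4% of all such ratios. The exceptions were the dimmer SMARCB1 probe with siRNA 1 and the dim SMARCC2 probe with siRNA 3. The lowest of the 3 siEPEL arrays was siRNA 1 for 6 of the 11 probes, against 34.3% of all probes. With only the brightest probe of each gene it was siRNA 1 for 3 of 8 genes, against 35% of all genes. The median log2 ratio of the 11 was -0.11 with siRNA 1, 0.04 with siRNA 2 and 0.06 with siRNA 3.

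In their course over the 4 arrays, the subunits fell into no single pattern. After each gene was centred on its own mean, SMARCC2 and SMARCD1 were the closest of the 8 genes, with a root mean square difference of 0.03 on the log2 scale. SMARCB1 (brighter probe) and SMARCC1 differed by 0.06 and SMARCB1 and SMARCA2 by 0.09, all lowest with siRNA 1. SMARCA4 and SMARCA2 were the pair furthest apart, at 0.29. Over 9774 other genes detected on all 4 arrays, the most alike to SMARCA4 were ATXN7L3 (0.0025), THUMPD3 (0.01) and EPHA10 (0.01). For SMARCA2 they were EEF2KMT, with a difference of 0.01, and SDC4 and NDRG2, each with 0.02. With 4 arrays such matches are common: 2011 genes lay within 0.1 of SMARCA4 and 481 within 0.1 of SMARCA2.

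**Figure D4:**
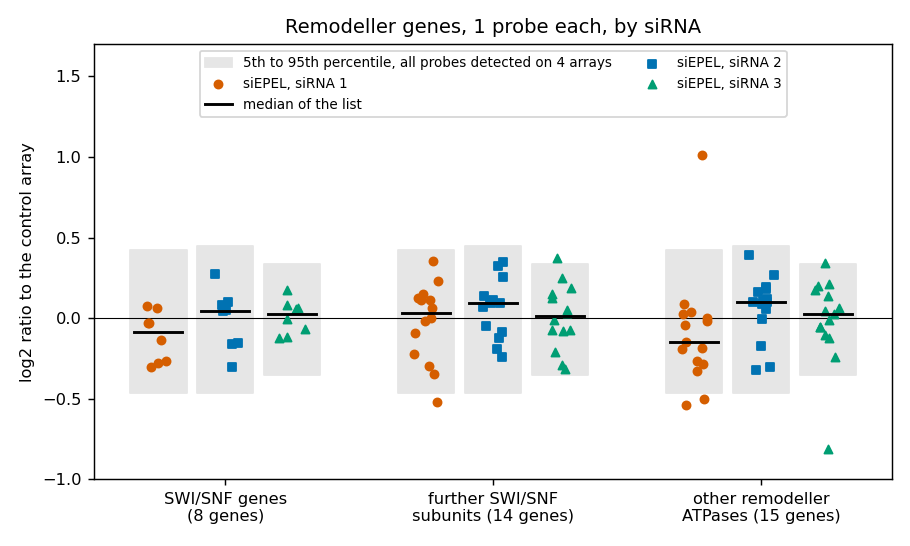
Log2 ratio to the control array by siRNA for the 8 detected SWI/SNF genes, 14 further SWI/SNF subunit genes and 15 other remodeller ATPase genes, each by its brightest probe. CHD3 and SRCAP, each detected on 2 arrays, are drawn too, and the lowest point of siRNA 3 is SRCAP, not detected there. Black lines are list medians and grey bars span the 5th to 95th percentile of all probes detected on all 4 arrays. The 24 ratios of the 8 SWI/SNF genes all lie within the grey bars.

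The plot of ratios by list places the subunits beside the rest of the complex. Of 19 further subunit genes, 18 had a probe and 14 were tested, 0 of which passed in either direction at an adjusted p under 0.05. ACTL6B, DPF1 and DPF3, known as the forms of their subunits used in neurons and muscle, and BCL7A, were detected on 0 arrays, and SMARCD2 had no named probe. The median log2 fold change of the 14 was 0.08, against -0.02 for the 8 genes above. It was 0.01 with the mean of each gene's probes, 0.03 without siRNA 1 and 0.02 with no detection filter, so its size depended on the choice of probe and array. Below the control with all 3 siRNAs were 4 of 14 (20.3% of all genes tested) and above it 6 of 14 (20.5%).

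Of the named further subunits, BRD9, the bromodomain subunit of the non-canonical form, lay furthest below the control. Its log2 ratios were -0.52, -0.13 and -0.32 for siRNAs 1 to 3, and the limma estimate was -0.32 ± 0.23 (SE; adjusted p = 1.00). ACTB, actin, which is also a subunit, gave -0.19 ± 0.21 by its brightest probe, and its other probes gave -0.08 and 0.20, so its direction was not settled. SMARCE1 (BAF57) lay at -0.11 ± 0.21. On the high side were DPF2, the histone reader of canonical BAF, at 0.21 ± 0.21, BRD7, the bromodomain subunit of PBAF, at 0.15 ± 0.20, and BCL7B at 0.14 ± 0.20. None of these differences exceeded 1.5 times its standard error.

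SMARCD3, the paralogue of SMARCD1, had the only 1 of 22 tested probes in these 14 genes with an unadjusted p under 0.05 (limma). Of all tested probes 2.1% had such a p. SMARCD3 is named for this probe, after its values were seen. The probe ILMN_2408987 read 92.4 in control cells, just above the detection limit, and 124, 118 and 102 on siEPEL arrays 1 to 3. All 3 siEPEL arrays lay above the control, as for 21.1% of all probes detected on all 4 arrays. They stood at 1.68, 1.53 and 1.21 times its level, and the limma estimate was 0.55 ± 0.24 in log2 (SE; adjusted p = 1.00). The brightest SMARCD3 probe gave 1.09-fold, 1.19-fold and 1.04-fold, on the same side but smaller. The third SMARCD3 probe, ILMN_1693244, read 52.2 to 63.9 and was detected on 0 arrays.

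Remodeller ATPases outside SWI/SNF gave a median log2 fold change of -0.01 over 15 genes tested of 16, and 0 passed. This median was 0.04 over the 13 genes detected on all 4 arrays, 0.07 without siRNA 1 and -0.05 without siRNA 2, so its sign is not settled either. ATRX was detected on 0 arrays. Below the control with all 3 siRNAs were 3 of 15 (20.3% of all genes tested) and above it 1 of 15 (20.5%). The 3 include SRCAP, whose signals with siRNAs 2 and 3 were not detected. CHD9 lay at -0.24 ± 0.21 (SE) and CHD4, the NuRD ATPase, at -0.09 ± 0.20, both below the control with each siRNA. A second CHD4 probe, ILMN_1685551, gave -0.26 ± 0.21, also below it with each. SRCAP, which deposits the histone variant H2A.Z, was detected only on the control array and with siRNA 1 (0.999-fold the control), near the detection limit, so no fold is given for siRNAs 2 and 3. CHD7 lay above the control with each siRNA, at 0.08 ± 0.20. The list medians with siRNAs 1, 2 and 3 were -0.15, 0.10 and 0.03, and those of the 8 SWI/SNF genes -0.08, 0.05 and 0.02. Both lists were lowest with siRNA 1, whereas the 14 further SWI/SNF subunit genes gave 0.03, 0.09 and 0.01, lowest with siRNA 3. These differences between siRNAs were not tested.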

How the data were processed

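The deposited raw intensities, a BeadStudio export per the submitters' processing notes, are mean bead signals per probe on a linear scale, with neither background nor array differences removed. Per the file headers, each deposited intensity is paired with its detection p-value. The authors' processed intensities form the other table. Its values are linear, background-subtracted and scaled between arrays (medians 10.7 to 10.8, 1 lowest and 1 highest value shared by all arrays), by a method not given in the sources used here.

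The main values came from neqc (limma 3.58.1, R 4.3.3): normexp based on detection p-values, then quantile normalization, with 16 added before log2, which understates fold changes of dim probes. Tested were the 18200 probes detected on 1 or more arrays, at a detection p under 0.01. siEPEL (3 arrays) was set against control (1) with lmFit and eBayes, 2-sided, threshold 0.05. Precision is limited by the number of arrays, with a median standard error of 0.22. Gene names came from the platform annotation (30113 probes with 1 gene, 8 with several, 17107 unnamed here), and the RefSeq table of GRCh38.p14 changed 0 of them. No coordinates are given, as the files name no build.

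The members and lists were chosen with earlier results of these data known. All members were named by every probe. Listed genes were named as the 3 highest and 3 lowest by the smallest of 3 same-sided ratios. The fit was tested on simulated data. Alternatives varied background, normalization, source of values, offset, filter, prior and probe, and left out each siRNA.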

Additional observations from a re-analysis of the deposited data

How the results depend on the processing

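Under 12 alternatives and at an unadjusted p under 0.05, 0 SWI/SNF probes were called. Over the whole array the count was also 0, except for 382 at an unadjusted p under 0.05. ARID1A and the dimmer SMARCB1 probe stayed below the control (-0.29 to -0.20 and -0.48 to -0.23), and the dimmer SMARCC2 probe above it (0.06 to 0.23). Few of the settings could have turned these signs. Filter and prior leave a fold change unaltered. ARID1A and that SMARCB1 probe lay below the control with each siRNA, so leaving out 1 siRNA could not raise them above it. The authors' processed values nearly repeated the main ones (ARID1A -0.2312 against -0.2313). With no background correction, median scaling and cyclic loess, ARID1A gave -0.2122, -0.2578 and -0.2480, and that SMARCB1 probe -0.2917, -0.3747 and -0.3899. The other 8 probes, all near 0, turned their sign in 13 cases. SMARCA2 turned to -0.0075 with median scaling and to -0.0055 with cyclic loess, and SMARCD1 to -0.0133 with median scaling. The remaining turns came from leaving out 1 siRNA, where the fold change ranged from -0.0905 to 0.0738 (ARID2, ILMN_2182335), -0.0763 to 0.0200 (ARID2, ILMN_1795247), -0.1238 to 0.1659 (SMARCA2), -0.0855 to 0.0323 (SMARCA4), -0.1017 to 0.0716 (brighter SMARCB1 probe), -0.0430 to 0.0666 (SMARCC1), -0.0760 to 0.0057 (brightest SMARCC2 probe) and -0.0049 to 0.0813 (SMARCD1). The median of the 11 probes ranged from -0.0454 to 0.0166 in those fits, and that of the other remodeller ATPases from -0.0477 to 0.0743. The latter, -0.0052 as reported, was 0.0438 over genes detected on all 4 arrays. The mean difference between SMARCA2 and SMARCA4 ranged from -0.16 to 0.25. The median of the further subunits, 0.08, moved to 0.0206 with no detection filter and to 0.0115 with the mean of a gene's probes, and lay between 0.0325 and 0.0773 when 1 siRNA was left out. Causes other than the fewer arrays or different probes were not tested. No paired analysis was possible because the control is a single array.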
